A study of Heterocephalus glaber with 2 samples.

Results

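Transcripts of AP-1 and EGR immediate early factors were measured in dorsal skin of the naked mole-rat (Heterocephalus glaber), a burrowing rodent known for its long life. The old skin was from an age of 19 years and the young skin from an age of 4 years. The 10 genes are FOS, FOSB and FOSL2 of the FOS family, JUN, JUNB and JUND of the JUN family, ATF3, and EGR1, EGR2 and EGR3 of the EGR family. A locus was taken where its gene name was one of these symbols, and each symbol named exactly 1 of the 24514 loci. Values are FPKM, which divides the fragments of a locus by its length and by the library's size. Each age had 1 GEO sample with 2 tables of values, called old 1, old 2, young 1 and young 2 after the numbers in the tables. No treatment or genetic change is named for either age. Separate animals are not stated for the 2 libraries of 1 age, so p-values speak only of how far these libraries differ, a spread that may be technical.

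AP-1 is a dimer of leucine zipper proteins. JUN proteins pair with each other, with FOS proteins or with ATF proteins, while FOS proteins need a JUN partner to bind DNA. EGR proteins are zinc finger factors that bind GC-rich sites. FOS, FOSB, JUN, JUNB, ATF3 and the EGR genes are textbook immediate early genes. Their transcripts are made within minutes of a growth factor, wound or stress signal, through kinases and factors that the cell already holds, and are then broken down quickly. JUND and FOSL2 are usually steadier. In skin, AP-1 is known for its part in keratinocyte differentiation and in the response to wounding and ultraviolet light.

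The libraries split by number more than by age. Small structural RNAs held 51.4% of the summed FPKM in old 1 and 47.0% in young 1, against 0.773% in old 2 and 0.593% in young 2. Mitochondrially encoded genes held 4.06% in old 1, 29.6% in old 2, 5.77% in young 1 and 23.2% in young 2. Ages were therefore compared within a number, old 1 with young 1 and old 2 with young 2. Each is a comparison of 1 library with 1 library, with no replicate check. Log2 ratios are of FPKM + 1, which understates the change of low genes, and 2-fold (a log2 ratio of 1) was taken as a size to count. The depth of the libraries is unknown, so no counting error can be given. All 7 keratinocyte and all 7 fibroblast markers looked up had a locus, and their values stand with the other cell types at the end.

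All 10 genes had their highest value in old 2. Among all tested loci, those with a mean of at least 1 FPKM, 21.9% were highest in old 2. The 10 genes together held 0.0275% of the summed FPKM in old 1, 0.153% in old 2, 0.0306% in young 1 and 0.0413% in young 2. Of the FPKM left after small structural RNAs and mitochondrial genes were set aside, they held 0.0618% in old 1, 0.220% in old 2, 0.0647% in young 1 and 0.0542% in young 2. FOS, JUN, JUNB, FOSB, EGR2 and EGR3 stood at least 2.71-fold above the next library in old 2, and JUND 1.44-fold, whereas FOSL2, EGR1 and ATF3 were at most 1.19-fold above the next library. When those 2 RNA classes were removed and the libraries rescaled, FOSL2 was highest in young 1 instead, and the other 9 genes were still highest in old 2.

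**Figure D1:**
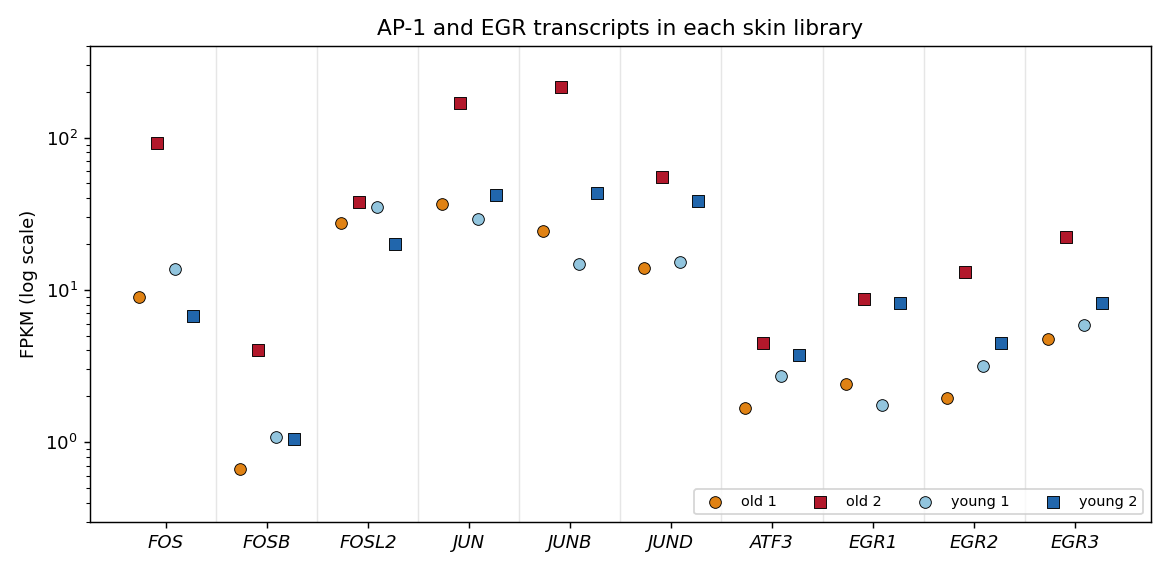
FPKM of each gene in each library on a log axis, with old libraries in orange and red, young libraries in light and dark blue, circles for number 1 and squares for number 2. The red squares of old 2 are the highest point for all 10 genes, by 6.65-fold over the next library for FOS and by 1.07-fold for EGR1.

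Within number 2 all 10 genes were higher in old than in young skin, where 44.4% of tested loci were. Within number 1, 3 were higher and 7 lower, and 58.7% of tested loci were higher. The median log2 ratio of the 10 was 1.32 in number 2 and -0.28 in number 1, while all 12753 tested loci had medians of -0.06 in number 2 and 0.07 in number 1. The 10 were chosen with it known that their medians differ in sign, so that contrast is not an independent result. In number 2, 6 of the 10 were at least 2-fold higher in old skin (FOS, FOSB, JUN, JUNB, EGR2 and EGR3), a size reached by 4.33% of tested loci. None was at least 2-fold lower there, as 5.55% of tested loci were. In number 1 none of the 10 reached it in either direction, where 2.36% of tested loci were at least 2-fold higher and 1.83% at least 2-fold lower. JUN, JUNB and EGR1 were higher in old skin in both numbers, as were 26.7% of tested loci, and the other 7 were lower in number 1 and higher in number 2, as were 17.6%. All 10 genes passed the filter on low values, the lowest being FOSB with a mean of 1.71 FPKM. FOSB passed only through old 2, at 4.04 FPKM there against 0.669 in old 1, 1.08 in young 1 and 1.05 in young 2. Its place among these counts therefore rests on the library where it was high.

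**Figure D2:**
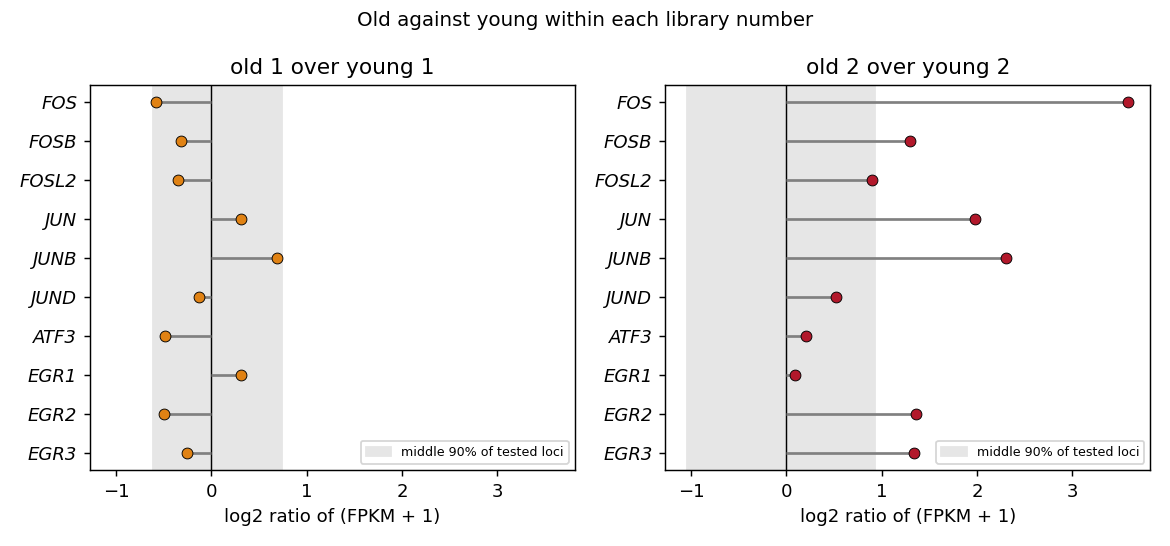
Log2 ratio of FPKM + 1, old over young, for each gene in number 1 (left) and number 2 (right), with the range from the 5th to the 95th percentile of tested loci in grey. In number 1 every gene lies inside the grey range of -0.61 to 0.74, and in number 2 FOS, FOSB, JUN, JUNB, EGR2 and EGR3 lie beyond its upper end of 0.93.

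FOS, the best known immediate early partner of JUN proteins, had the largest ratio of the 10 in number 2. It stood at 8.93 FPKM in old 1 and 91.7 in old 2, against 13.8 in young 1 and 6.72 in young 2. Old 2 was the highest and young 2 the lowest library, and the ages overlapped because old 1 lay between the young libraries. The fold was 13.7 in number 2, log2 ratio 3.59, and only 7 of the 12753 tested loci had a higher ratio there. In number 1 old skin held 0.647 of the young value, a log2 ratio of -0.58.

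FOSB, a close relative of FOS, was the lowest of the 10 in every library. It stood at 0.669 FPKM in old 1 and 4.04 in old 2, against 1.08 in young 1 and 1.05 in young 2. The young libraries were nearly equal and lay between the old ones. Its log2 ratio came to -0.31 within number 1 and 1.29 within number 2, and at such levels the added 1 FPKM makes these ratios smaller than the folds of 0.622 and 3.83.

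FOSL2, a FOS family member with a steadier transcript, varied least between libraries among the FOS genes. It stood at 27.3 FPKM in old 1 and 38.0 in old 2, against 35.0 in young 1 and 19.9 in young 2. Old 1 lay between the young values and old 2 just above them. The log2 ratio came to -0.34 within number 1 and 0.90 within number 2, a fold of 1.91.

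The FOS family sum was 36.9 FPKM in old 1, 134 in old 2, 49.8 in young 1 and 27.6 in young 2. FOSL2 made up most of it in 3 libraries, 74.0% in old 1, 70.1% in young 1 and 71.9% in young 2. In old 2 FOS took that place, with 68.6% of the sum against 28.4% for FOSL2. FOS itself held 24.2% in old 1, 27.7% in young 1 and 24.3% in young 2, so its share was alike in those 3 libraries.

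JUN, the main activating subunit of AP-1, stood at 36.5 FPKM in old 1 and 168 in old 2, against 29.2 in young 1 and 41.8 in young 2. Its log2 ratio came to 0.32 within number 1 and 1.98 within number 2. Old skin was higher in each number, by 1.25-fold and 4.01-fold, but old 1 lay below young 2.

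JUNB, a JUN family member that often restrains JUN, stood at 24.4 FPKM in old 1 and 216 in old 2, against 14.8 in young 1 and 43.2 in young 2. It had the highest ratio of the 10 in number 1, 0.69, and the next highest after FOS in number 2, 2.30. The folds were 1.65 and 5.01. Both number 2 libraries lay above both number 1 libraries, so the ages overlapped.

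JUND, the JUN family member that most resting cells express, followed the library number. It stood at 13.9 FPKM in old 1 and 55.4 in old 2, against 15.3 in young 1 and 38.5 in young 2. The log2 ratio came to -0.13 within number 1 and 0.52 within number 2.

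The JUN family sum was 74.8 FPKM in old 1, 439 in old 2, 59.2 in young 1 and 123 in young 2. It exceeded the FOS family sum 2.02-fold in old 1, 3.28-fold in old 2, 1.19-fold in young 1 and 4.46-fold in young 2. JUNB took 32.6% of the JUN sum in old 1 and 49.2% in old 2, against 24.9% in young 1 and 35.0% in young 2. JUNB's share was larger in old than in young skin in each number, and JUND's was smaller, at 18.6% in old 1 and 12.6% in old 2 against 25.8% in young 1 and 31.2% in young 2. With 2 libraries per age, the JUND shares of the ages did not overlap, while those of JUNB did.

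**Figure D3:**
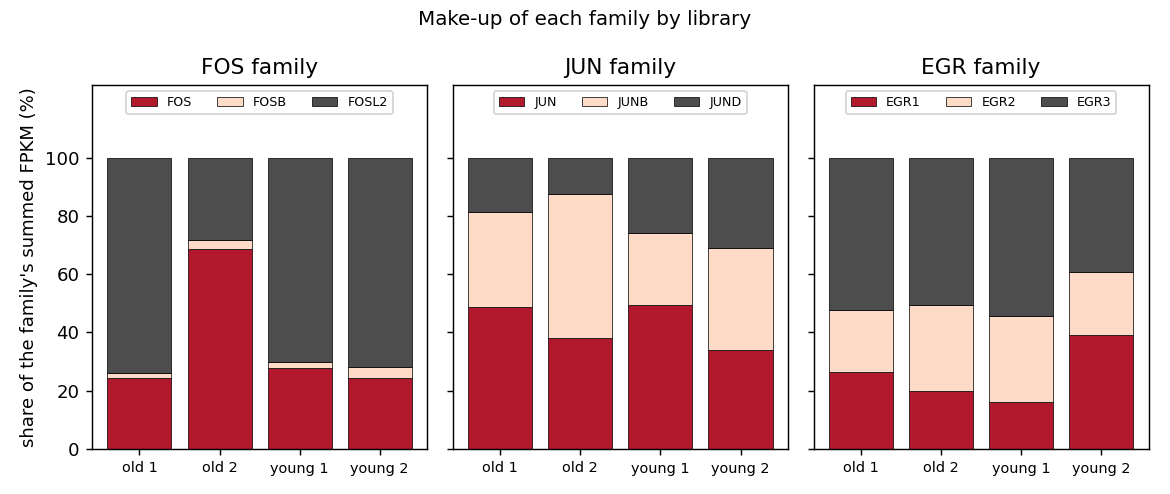
Share of each family's summed FPKM (%) taken by each of its 3 genes, for old libraries and then young ones. FOS is the larger part of the FOS family in old 2, at 68.6%, while FOSL2 holds 70.1% to 74.0% in the other 3 libraries.

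ATF3, a stress-induced factor that pairs with JUN proteins and often represses, stayed low. It stood at 1.66 FPKM in old 1 and 4.46 in old 2, against 2.71 in young 1 and 3.75 in young 2. Both young values lay between the old ones. The log2 ratio came to -0.48 within number 1 and 0.20 within number 2.

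EGR1, the most studied EGR factor and a direct target of the serum response factor, followed the library number rather than the age. It stood at 2.42 FPKM in old 1 and 8.76 in old 2, against 1.75 in young 1 and 8.20 in young 2. The log2 ratio came to 0.32 within number 1 and 0.09 within number 2, where old 2 and young 2 differed by 1.07-fold. It was the gene of the 10 with the smallest ratio in number 2 and the only 1 whose ratio was smaller there than in number 1.

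EGR2, which in other tissues directs myelination by Schwann cells, stood at 1.94 FPKM in old 1 and 13.1 in old 2, against 3.15 in young 1 and 4.49 in young 2. The young libraries lay between the old ones, and the log2 ratio came to -0.50 within number 1 and 1.36 within number 2. EGR3 had the highest value of the 3 EGR transcripts in every library, but in young 2 EGR1 was nearly level with it, at 8.20 FPKM. EGR3 stood at 4.77 FPKM in old 1 and 22.4 in old 2, against 5.87 in young 1 and 8.25 in young 2. Its log2 ratio came to -0.25 within number 1 and 1.34 within number 2. The EGR sum was 9.14 FPKM in old 1, 44.2 in old 2, 10.8 in young 1 and 20.9 in young 2.

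The order of the transcripts, which FPKM allows because it is per length, also differed between the libraries. JUNB and JUN led in both number 2 libraries. In old 2 JUNB, JUN and FOS stood at 216, 168 and 91.7 FPKM, followed by JUND with 55.4 and FOSL2 with 38.0. In old 1 JUN, FOSL2 and JUNB led with 36.5, 27.3 and 24.4 FPKM. FOSL2 led in young 1, with 35.0 FPKM ahead of JUN with 29.2 and JUND with 15.3, JUNB following at 14.8. In young 2 JUNB, JUN and JUND were close, at 43.2, 41.8 and 38.5 FPKM, and FOS with 6.72 stood below EGR3 and EGR1. Ranked by the mean of an age, most neighbours had overlapping values in the libraries of that age. The exceptions were FOSL2 above EGR3 in old skin, and JUND above FOS and ATF3 above FOSB in young skin.

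**Figure D4:**
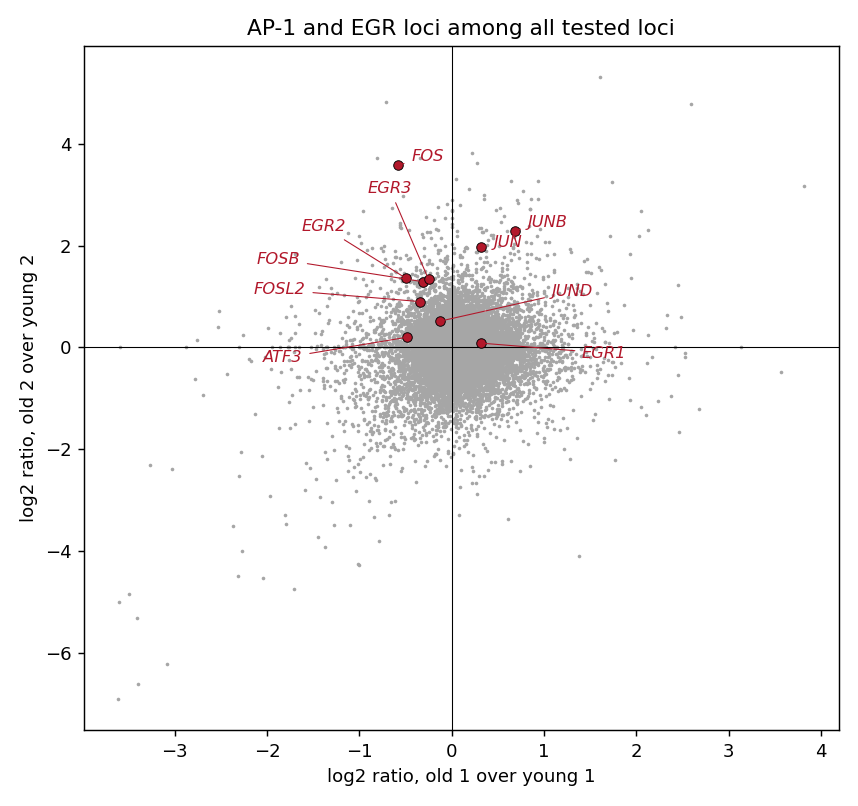
Log2 ratio of FPKM + 1, old over young, in number 1 (horizontal) and number 2 (vertical), with 1 grey point per tested locus and the 10 genes in red. FOS lies near the upper edge of the cloud at -0.58 and 3.59, and 7 of the 10 genes lie in the upper left part, lower in number 1 and higher in number 2.

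No gene of the 10 passed a test of age over the 4 libraries. The library number, by which the libraries split, was not a term in that test. The difference between numbers therefore counted as spread, which left the test weak for differences with age. A fit with the number as a term is given at the end. With limma on log2(FPKM + 1) and age as the only term, 0 of 12753 loci (0.0%) had an adjusted p below 0.05. Unadjusted, 25 loci higher and 53 lower in old skin were below 0.05, none of them among the 10 genes. Without the trend in the moderation limma also called 0 loci, as it did with robust moderation. The log2 differences ran from -0.14 ± 0.58 (SE) for ATF3 to 1.51 ± 1.12 for FOS, and 9 of the 10 were positive. FOS had the lowest unadjusted p in this fit, 0.231 by limma, and adjusted p was 1.00 for each gene. With the number as a term the lowest of the 10 was that of JUNB, 0.00944 by limma, adjusted 0.470. None of the 10 had both old libraries above or both below the young ones. Of the 12753 tested loci 931 (7.3%) had both above and 824 both below, so most loci overlapped as well. The smallest p that exact permutation of 2 against 2 libraries allows is 0.33.

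The positive differences were smaller or negative without old 2. Without it limma gave 8 negative and 2 positive differences, at -0.11 for FOS, -0.058 for JUNB and 0.06 for JUN. Without old 1 all 10 were positive, at 3.12 for FOS, 3.04 for JUNB and 2.23 for JUN, and the lowest adjusted p was 0.248. In these fits the age with 1 library was assumed to vary like the other. They also set 1 number of old skin against both numbers of young skin, so age and number were mixed. JUNB and EGR1, negative without old 2, were 1.65-fold and 1.39-fold higher in old 1 than in young 1, where 7 of the 10 were lower.

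Genes around the AP-1 and EGR factors were described from 7 lists, by their counts and medians. The shares of all tested loci to set beside them are 58.7% higher in old skin in number 1, 44.4% higher in number 2, 4.33% at least 2-fold higher in number 2 and 21.9% highest in old 2. Among 24 other tested immediate early genes, 18 were higher in old skin in number 2 and 11 in number 1. Their ratios had a median of 0.53 for number 2 and -0.08 for number 1, where it was 0.09 with a minimum mean of 5 FPKM, and 5 were at least 2-fold higher in number 2. The 5 were BTG2, IER3, CCN1, GADD45A and IER2, chosen after their values were seen except BTG2. BTG2, which slows cell proliferation, stood at 25.4 FPKM in old 1 and 86.0 in old 2, against 28.3 in young 1 and 22.0 in young 2. IER3, a stress-induced survival gene, stood at 11.7 in old 1 and 87.2 in old 2, against 10.2 in young 1 and 29.5 in young 2. These genes had their highest value in old 2, as 17 of the 24 did. KLF4, a keratinocyte differentiation factor with the highest mean of the list, stood at 53.4 FPKM in old 1 and 133 in old 2, against 65.9 in young 1 and 85.3 in young 2.

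The pattern was not shared by every gene of that list. KLF2, an endothelial flow-responsive factor, was higher in old skin in each number, with log2 ratios of 1.20 and 0.91. SGK1, a kinase induced by glucocorticoids and salt, was lower in each, at 5.77 FPKM in old 1 and 4.69 in old 2 against 11.4 in young 1 and 7.84 in young 2. NR4A1, an orphan nuclear receptor, had a log2 ratio of -0.76 in number 1 and 0.28 in number 2, and was named after its values were seen. Of the 24 genes 0 passed the limma test.

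Feedback inhibitors limit the pathway once it is active. Of 19 tested, 13 were higher in old skin in number 2 and 8 in number 1, with medians of 0.52 in number 2 and -0.03 in number 1, where it was 0.0013 with a minimum mean of 5 FPKM, and 5 were at least 2-fold higher in number 2. SOCS3, which blocks cytokine receptor signalling, stood at 3.86 FPKM in old 1 and 23.1 in old 2, against 1.70 in young 1 and 2.63 in young 2. Its old values lay above both young ones, with log2 ratios of 0.85 and 2.73. ZFP36L1, an RNA-binding protein that speeds mRNA decay, stood at 54.6 in old 1 and 136 in old 2, against 69.0 in young 1 and 80.7 in young 2. The other 4 were ZFP36, DUSP1, NAB2 and DUSP6, named after their values were seen. DUSP1, a phosphatase that switches off MAP kinases, stood at 46.4 FPKM in old 1 and 48.6 in old 2, against 49.7 in young 1 and 18.6 in young 2, so young 2 stood below the other 3 libraries. The ZFP36 locus also carries the neighbouring gene MED29, and its value cannot be split between them. SPRY4 and DUSP4, further inhibitors of the kinase cascade, had the lowest ratios, SPRY4 with -0.74 in number 1 and DUSP4 with -0.84 in number 2.

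The kinases and transcription factors that switch on immediate early genes came next. The 18 tested kinases had medians of 0.05 in number 1 and 0.09 in number 2. Without small structural RNA and mitochondrial loci they were -0.01 in number 1 and 0.24 in number 2, and with median-of-ratios scaling -0.02 and 0.17. Of the kinases 13 were higher in number 1 and 11 in number 2, with 1 at least 2-fold higher in each number and 1 at least 2-fold lower in number 2. MAP2K2, a kinase that activates ERK, stood at 28.9 FPKM in old 1 and 78.6 in old 2, against 26.7 in young 1 and 53.5 in young 2. MAP2K7, which activates JNK and so the phosphorylation of JUN, had a log2 ratio of 1.08 in number 2 and 0.14 in number 1. RPS6KA3, a kinase below ERK, stood at 18.1 in old 1 and 0.727 in old 2, against 17.4 in young 1 and 4.12 in young 2. RPS6KA5 and MAPK9 had the highest and lowest ratios in number 1, 1.06 and -0.45. The 12 upstream transcription factors had medians of -0.02 and 0.36. STAT3, the factor below cytokine receptors, stood at 26.7 in old 1 and 73.6 in old 2, against 29.6 in young 1 and 41.2 in young 2. CREB1, which drives cAMP-responsive genes, had a log2 ratio of -1.02 in number 2, from 0.536 FPKM in old 2 against 2.11 in young 2. In number 1 CREB1 was nearly level, at 0.06. ETS1 had -1.56 in number 1 and -0.58 in number 2, whereas MRTFB was at 0.67 in number 1.

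The 14 other AP-1 family members and dimer partners had medians of 0.07 in number 1 and 0.11 in number 2. ATF4, the factor of the integrated stress response, was the most abundant, at 97.5 FPKM in old 1 and 102 in old 2 against 71.9 in young 1 and 78.5 in young 2. Its old values were above both young ones by small margins. MAFK, a small MAF protein, had the highest ratio in number 2, 1.96, and JDP2, a repressor of AP-1, the lowest, -1.46, at 2.69 FPKM in old 1 and 1.65 in old 2 against 2.62 in young 1 and 6.30 in young 2. MAF had a ratio of -1.08 in number 1. FOSL1, the remaining FOS family gene, was low throughout, at 0.441 in old 1 and 1.66 in old 2 against 0.735 in young 1 and 2.25 in young 2.

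Of 17 tested genes known as AP-1 or EGR targets, 11 were higher in old skin in each number, where 58.7% of all tested loci were in number 1 and 44.4% in number 2, with medians of 0.21 in number 1 and 0.49 in number 2. CCL2, a chemokine that draws monocytes, stood at 2.14 FPKM in old 1 and 12.2 in old 2, against 1.30 in young 1 and 1.84 in young 2. PLAU, the urokinase protease, stood at 10.8 in old 1 and 7.35 in old 2, against 4.28 in young 1 and 4.04 in young 2, with both old values above the young ones. CD44, the hyaluronan receptor, had a log2 ratio of -0.90 in number 2 and 0.06 in number 1. VEGFA had -1.27 in number 1 and -0.37 in number 2. The loricrin gene, whose protein builds the cornified envelope, split by number, at 1.84 in old 1 and 321 in old 2 against 2.54 in young 1 and 228 in young 2. MMP1, MMP9, MMP10, MMP13, IL6, PTGS2 and AREG had a locus but did not reach the filter.

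Heat shock genes serve as a readout of protein stress. The medians of 13 tested genes were 0.36 in number 1 and -0.05 in number 2. The sign in number 2 turned with the scaling, to 0.03 with median-of-ratios factors and 0.15 without small structural RNA and mitochondrial loci. HSPB1, a small chaperone abundant in differentiating keratinocytes, was an exception at 98.6 FPKM in old 1 and 2124 in old 2, against 110 in young 1 and 426 in young 2. HSPA1A, the inducible chaperone, was at 51.4 in old 1 and 130 in old 2, against 34.4 in young 1 and 48.1 in young 2, and was named after its values were seen. DNAJB1 and DNAJB4, both co-chaperones, were lower in number 2 and higher in number 1. The log2 ratio of DNAJB1 was 0.76 for number 1 and -0.59 for number 2, and DNAJB4 had 0.32 for number 1 and -0.80 for number 2. Limma called 0 loci in any of the 7 lists.

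**Figure D5:**
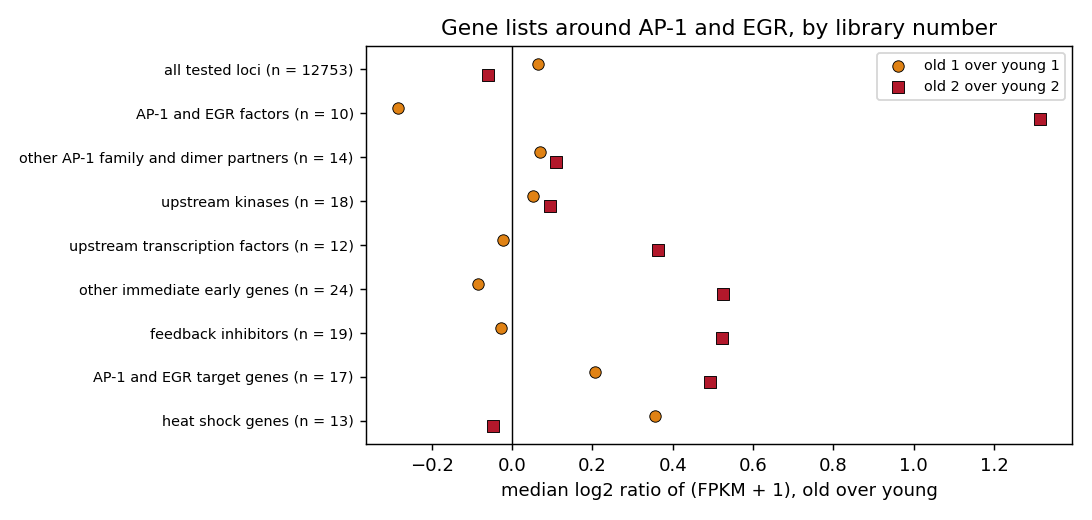
Median log2 ratio of FPKM + 1, old over young, for all tested loci, the 10 factors and 7 lists of related genes, with circles for number 1 and squares for number 2. The 10 factors lie at -0.28 and 1.32, and were chosen with it known that their medians differ in sign. Other immediate early genes and feedback inhibitors have squares at 0.53 and 0.52.

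Among other tested loci with a symbol, the profiles of 8 over the 4 libraries were taken as nearest to the median profile of the 10 factors. They were DEXI, LPO, CD14, NAB2, POLM, LRP10, MRPL14 and SYNGR2. Loci without a symbol were not considered. Likeness was the Euclidean distance between log2(FPKM + 1) profiles centred on their mean, 0.08 for DEXI and 0.23 for SYNGR2. Among the 10 factors themselves EGR3 lay nearest to that profile, at 0.13, and FOS farthest, at 1.70. NAB2, a corepressor that binds EGR proteins, stood at 19.4 FPKM in old 2 against 7.84 in young 2, a log2 ratio of 1.21, and was nearly equal in old 1 and young 1. CD14, a receptor for bacterial lipopolysaccharide on myeloid cells, stood at 4.55 in old 1 and 22.4 in old 2, against 5.66 in young 1 and 7.84 in young 2. With only 4 libraries, many loci can share such a profile.

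Markers of the cell types that skin holds also differed between the libraries, and their part in these results was not tested. In bulk tissue, fewer cells of a type and less RNA per cell cannot be told apart. Macrophage markers were the only 1 of 9 marker lists whose median was below 0 in number 1 and above 0 in number 2, as for the 10 factors. Their median was -0.52 in number 1, with 5 of 5 lower in old skin, and 0.40 in number 2, with 3 of 5 higher. Of the 12753 tested loci 5260 were lower in number 1 and 44.4% were higher in number 2. With a minimum mean of 5 FPKM the macrophage medians were -0.40 in number 1 and 0.18 in number 2. The 5 markers summed to 59.6 FPKM in old 1 and 95.9 in old 2, against 83.0 in young 1 and 93.6 in young 2. CD163, a scavenger receptor of resident macrophages, stood at a log2 ratio of -0.86 for number 1 and 1.95 for number 2. AIF1 had -0.02 in number 1 and 0.75 in number 2. CSF1R, the receptor that macrophages need to survive, had -0.52 in number 1 and -0.05 in number 2, while CD68 stood at 17.9 FPKM in old 2 against 36.7 in young 2.

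The 7 fibroblast markers summed to 1443 FPKM in old 1 and 696 in old 2, against 6666 in young 1 and 9388 in young 2. In young skin the sum was mostly collagen transcripts, and the other fibroblast markers differed less. COL1A1 stood at 196 FPKM in old 1 and 41.4 in old 2, against 2079 in young 1 and 4121 in young 2. COL3A1 stood at 223 in old 1 and 20.8 in old 2, against 2734 in young 1 and 2623 in young 2. The list's median was only -0.06 in number 1, where PDGFRA had -0.06 and VIM 0.52. In number 2 the median was -2.16 and 7 of 7 were lower, PDGFRA with -0.28.

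Keratinocyte markers had medians of 0.04 in number 1 and -0.91 in number 2, where 5 of 7 were lower in old skin. Their sum was 3561 FPKM in old 1 and 5808 in old 2, against 3526 in young 1 and 7377 in young 2. KRT10, of differentiating layers, carried much of it and was nearly level, at a log2 ratio of 0.04 for number 1 and -0.05 for number 2. KRT1 had 0.17 in number 1 and DSP 0.02 in number 2. The KRT1 locus also carries KRT77, and the KRT14 locus of this list also carries KRT16, so their values cannot be split. KRT5, of the basal layer, had -1.76 in number 2, and TP63, a basal layer factor, had -0.83 in number 1 and -1.25 in number 2.

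The 4 adipocyte markers were all higher in old skin in number 1 and all lower in number 2, and summed to 574 FPKM in old 1 and 107 in old 2, against 378 in young 1 and 169 in young 2. FABP4 had a log2 ratio of 0.74 for number 1 and -0.14 for number 2, PLIN1 had 1.02 in number 1 and LEP -2.41 in number 2. The PLIN1 locus also carries PEX11A. Both red cell markers with a locus, HBA2 and ALAS2, were lower in old skin in each number, and summed to 27.7 in old 1 and 152 in old 2, against 265 in young 1 and 754 in young 2. The 4 skeletal muscle markers with a locus, led by ACTA1, summed to 2997 in old 1 and 2851 in old 2, against 2382 in young 1 and 2301 in young 2. TNNT3 was higher in old skin in each number, with 0.56 and 0.50, and CKM lower, with -0.16 and -0.26.

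The 6 endothelial markers, led by VWF, summed to 81.1 FPKM in old 1 and 56.7 in old 2, against 97.8 in young 1 and 64.0 in young 2. EMCN had a log2 ratio of -1.15 in number 2 and CDH5 of 0.36. The 3 mast cell markers with a locus summed to 77.7 in old 1 and 42.2 in old 2, against 74.4 in young 1 and 87.7 in young 2, with CPA3 at -1.40, KIT at -0.37 and MS4A2 at -0.24 in number 2. The 3 T cell markers with a locus summed to 5.66 in old 1 and 4.60 in old 2, against 3.33 in young 1 and 13.3 in young 2, with CD3D at -1.45 and CD3E at -0.70 in number 2. No marker with a locus was at the floor value in all 4 libraries.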

How the data were processed

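RNA of naked mole-rat skin, taken through its full depth, was sequenced. Per the labels' protocols, RNA with an integrity number above 7.5 was used, a Ribo-Zero Gold kit depleted ribosomal RNA, and 2 × 150 base paired-end reads were made. Tools listed, per the submitters' processing notes, are TopHat2, Bowtie2, FastQC and cutadapt. For genome build, annotation and quantifier no source used here gives a name. The deposited values are the authors' FPKM for 24514 loci in 4 tables with a floor of 0.0001 FPKM, and no counts, so depth and counting error are unknown. Whether strand was used in counting is not stated, so antisense transcripts cannot be told apart.

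Symbols came from the tables, or, for 1452 loci without one, from RefSeq (H.glaber_assembly_v1.0) by NCBI gene number. The highest-mean locus was used for each symbol. After a filter on the mean (1 FPKM or more), 12753 loci entered a limma 3.58.1 fit (R 4.3.3) of log2(FPKM + 1), with age as the only term, with a mean-variance trend, two-sided tests and Benjamini-Hochberg adjustment. On simulated data with added age differences, the fit was required only to return their size with a small mean error. How many of them it could find was not required, so this check does not bear on the absence of calls. No list test was run. The members and lists were chosen with earlier results of these data known. Among these was the difference in sign between the medians of the 10 factors in number 1 and number 2. Per list, the text names the gene of highest mean and those of highest and lowest ratio in each number. Exceptions are marked or serve as examples of a count, as FOSL1 and the genes below the filter do. FOSL1 and MAFF stand in 2 lists, as does CREB1. Alternatives were median-of-ratios scaling, a stricter filter (mean of 5 FPKM) or none, 0.1 as pseudocount, removal of small structural RNA (2463 loci) and mitochondrial loci (10) with rescaling, no trend, robust moderation, summed loci, each library left out, and the library number as a term. Tables were made with pandas 2.3.3 and numpy 2.4.6 and plots with matplotlib 3.10.9 (Python 3.11.15).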

Additional observations from a re-analysis of the deposited data

How the results depend on the processing

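The medians of the 10 factors stayed between -0.35 and -0.19 in number 1 and between 1.29 and 1.48 in number 2 under every scaling, pseudocount and filter tried and with each gene left out. No log2 ratio of a single factor within a number changed sign. With small structural RNA and mitochondrial loci removed, 7 factors in place of 6 were at least 2-fold higher in number 2, and the median of all tested loci there was 0.07 in place of -0.06. At a minimum mean of 5 FPKM, FOSB and ATF3 dropped out. Summing loci changed nothing, since each symbol has 1 locus. Of the list medians 19 moved by more than the SD between the 2 numbers and 139 by less, and several near 0 changed sign. In number 1 these were upstream kinases (-0.02 with median-of-ratios scaling), other immediate early genes (0.09) and feedback inhibitors (0.0013) at a minimum mean of 5 FPKM, and keratinocyte (-0.03) and mast cell markers (-0.02) with median-of-ratios scaling. In number 2 it was heat shock genes (0.15 without small structural RNA and mitochondrial loci).

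The number of loci that limma called was 0 in each direction under every other pseudocount, filter, scaling and moderation. With the library number as a term (replicate block) it was 1 higher and 2 lower, none of them among the 10 factors. Unadjusted, 377 loci higher and 460 lower in old skin were then below 0.05 by limma. JUNB then had adjusted p = 0.470 (unadjusted 0.00944, limma) and JUN adjusted p = 0.714 (unadjusted 0.0349, limma). The numbers come from the tables, and no label says that they pair animals. Leaving out 1 library gave 0 to 24 higher and 0 to 32 lower calls, again none among the 10. The most higher calls came without young 1 and the most lower calls without old 1.

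With 1 library left out, 1 age had only 1 number, so age and number were mixed. Leaving out 1 library turned the sign of a limma log2 difference for 9 factors. The difference ranged from -0.11 to 3.12 for FOS, -0.31 to 1.29 for FOSB, -0.11 to 0.67 for FOSL2, -0.058 to 3.04 for JUNB, -0.77 to 1.15 for JUND, -0.66 to 0.38 for ATF3, -0.67 to 1.07 for EGR1, -0.70 to 1.56 for EGR2 and -0.47 to 1.55 for EGR3, and for JUN, which kept its sign, from 0.06 to 2.23. The lowest value came without old 2 for FOS, FOSB, JUN, JUNB, JUND, ATF3, EGR2 and EGR3.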
